A study of Rattus norvegicus with 20 samples.

Results

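The interaction of histidine and doxorubicin is the part of the response to both compounds that the response to each compound alone does not give. It was measured for every gene as the difference between 2 differences on the log2 scale: combined treatment minus doxorubicin, less histidine minus PBS. All 20 of the 20 libraries of the study entered it, 5 in each of 4 groups, and 15449 of the 15503 genes of the table were tested. A value of 0 means that histidine had the same effect with and without the drug. The same value is also the change of the doxorubicin effect that came with histidine. A negative value means that combined treatment was lower than the 2 separate effects add up to, and a positive value that it was higher.

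RNA sequencing was done on cultures of neonatal rat cardiomyocytes, heart muscle cells isolated from newborn rats, after 72 h in 1 of 4 conditions. The groups were PBS (phosphate-buffered saline), histidine at 100 nM, doxorubicin at 1 µM, and histidine at 100 nM together with doxorubicin at 1 µM, here called combined. The study asks how histidine acts on heart cells with or without the drug. Nothing in the labels ties the 5 libraries of a group to separate cultures. The p-values therefore measure no more than the spread between these libraries, and that spread may be technical. The PBS libraries held 63561787 to 78204997 reads in genes, the histidine libraries 53246205 to 71623955, the doxorubicin libraries 54072746 to 83624651 and the combined libraries 58226690 to 71856131. Markers of the labelled cell type were low beside those of fibroblasts, the connective tissue cells of the heart: the 15 measured cardiomyocyte markers summed to 1108 to 1267 CPM (read counts scaled to a common library total) with PBS, and the 16 fibroblast markers to 106977 to 112474 CPM. In these whole-culture libraries fewer cells of a type and less RNA per cell cannot be told apart. Doxorubicin replicate 4 stood apart from the other 19 libraries, at 107.9 on the second principal component against -18.9 to 9.0, and its FPKM values (reads scaled by gene length and library total) summed to 517265 against 373417 to 398545.

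Histidine is an amino acid that cells take up through carriers of large neutral amino acids, build into protein, convert to histamine through histidine decarboxylase, and join to beta-alanine to form carnosine, a buffer and antioxidant of muscle. Doxorubicin is an anthracycline that inserts into DNA and traps topoisomerase II, so that DNA breaks, p53 is activated and cell division stops. It also takes part in redox cycles that produce reactive oxygen, which the transcription factor NRF2 answers by inducing antioxidant enzymes.

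No gene's response to doxorubicin differed between cultures with and without histidine past the threshold of the test. Cdkn1a, which encodes p21, the p53-induced brake on cell division, stood at 146, 161, 176, 159 and 157 CPM in the 5 PBS libraries and at 153, 163, 174, 164 and 151 CPM with histidine. It stood at 971, 952, 960.3, 1421 and 1048 CPM with doxorubicin and at 881, 816, 1044, 1003 and 1018 CPM with combined treatment. All 10 libraries with the drug were above all 10 without it, and doxorubicin replicate 4 was the highest. It rose by 2.74 on the log2 scale over PBS and by 2.56 over histidine (adjusted p = 1.37e-13 and 2.34e-13 in edgeR's test), and the interaction of -0.18 ± 0.14 (SE) had a 95% interval of -0.47 to 0.12 and was -0.05 without doxorubicin replicate 4.

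Over all genes, edgeR's quasi-likelihood test with Benjamini-Hochberg adjustment called 0 of 15449 interactions (0%) at an adjusted p under 0.05. The smallest adjusted p was 0.167, and 1060 genes (6.86%) had an unadjusted p under 0.05, 531 of them positive (3.44%) and 529 negative (3.42%). For comparison, 5% of the genes are 772. Among 10 variations of the test, DESeq2 called 15 genes and limma's voom method with sample weights 2, and the other 8 called 0. Leaving out 1 library at a time gave 1 call without doxorubicin replicate 1, 2 without replicate 2, 1 without replicate 5 and 0 without any of the other 17. Doxorubicin against PBS called 6673 genes (43.2%) and combined against histidine 6206 (40.2%), 2 comparisons that share no library. Of these, 4884 genes were called in both, 73.2% of the first list and 78.7% of the second, 4882 in the same direction and 2 in opposite directions. Histidine against PBS called 0 genes (0%), with 312 at an unadjusted p under 0.05. Combined against doxorubicin also called 0 (0%), with 1940 at an unadjusted p under 0.05, 662 higher and 1278 lower.

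**Figure D1:**
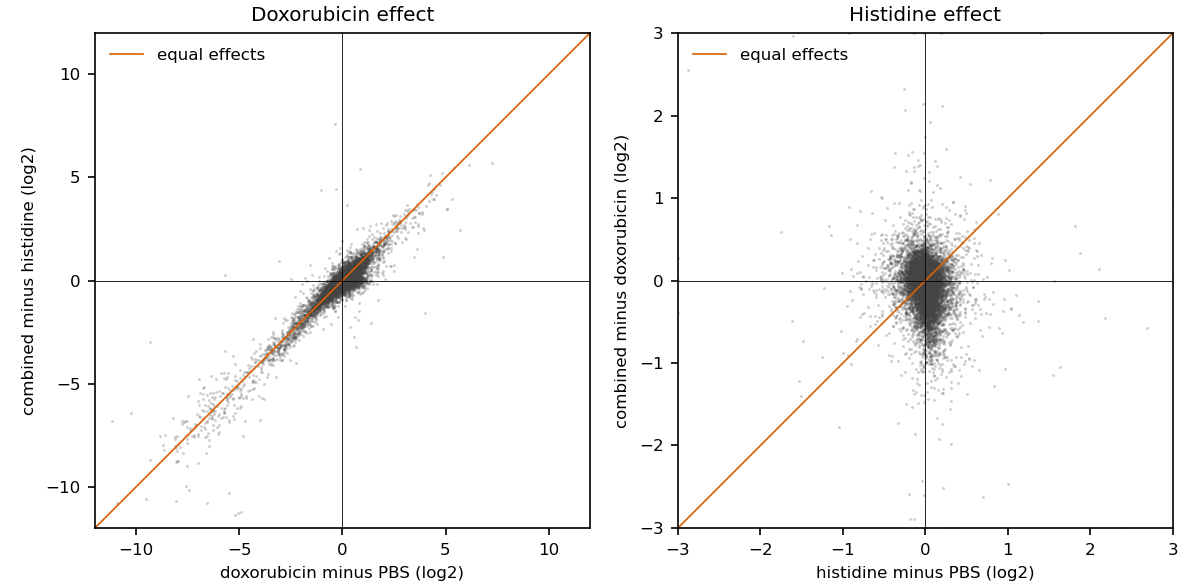
Log2 fold changes of the 13619 genes with a mean of at least 1 CPM. Left, the doxorubicin effect without histidine (x) and with it (y); right, the histidine effect without doxorubicin (x) and with it (y); the line marks equal effects, and 2 genes on the left and 18 on the right are drawn at the edge. The doxorubicin effects lie along the line (Pearson's r 0.939), and the histidine effects form a cloud around 0 (r -0.121, and 0.0368 without histidine 3, doxorubicin 3 and doxorubicin 4).

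Set side by side over the 13619 genes with a mean of at least 1 CPM, the doxorubicin effects with and without histidine had a Pearson's r of 0.939 and a Spearman's rho of 0.785 across genes, and 78.1% had the same sign. The histidine effects with and without doxorubicin had r = -0.121 and rho = -0.200, and 42.1% had the same sign. The points share the scaling and the fit but no library, and genes are not independent replicates, so these values describe the libraries and carry no p. The median size of the histidine effect was 0.0643 on the log2 scale without the drug and 0.130 with it. Single libraries moved these values. Without doxorubicin replicate 4 the doxorubicin effects had r = 0.951 and rho = 0.883, the histidine effects r = -0.0433 and rho = -0.0212 with 50.1% of the same sign, and the median histidine effect with the drug was 0.0854. Without histidine replicate 3 the histidine effects had r = -0.0676 and rho = -0.135. Without histidine 3, doxorubicin 3 and doxorubicin 4 both were positive, with r = 0.0368, rho = 0.112 and 55.1% of the same sign.

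The absence of calls leaves room for interactions of moderate size. The median SE of the interaction was 0.20 on the log2 scale. Its 95% interval lay within a 1.5-fold difference either way for 47.2% of the genes and within a 2-fold difference for 71.3%. For the 7629 genes with a mean of 10 to 100 CPM these shares were 66.8% and 88.0%, and for the 1830 genes under 1 CPM 0.0546% and 4.21%. Among well-measured genes, the interval of Hars1, the histidyl-tRNA synthetase that loads histidine for protein synthesis, ran from -0.22 to 0.09, and that of Top2b, the topoisomerase II of resting cells and a target of the drug in the heart, from -0.06 to 0.44. Mdm2, whose product marks p53 for breakdown, had a wide interval of -0.98 to 0.83: histidine replicate 1 was at 30.6 CPM against 111 to 124 in the other histidine libraries, and combined replicate 5 at 133 against 464 to 525.

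Of the 10 negative interactions with the smallest p among genes with a symbol and a mean of at least 5 CPM, 4 were of genes that act in DNA replication or mitosis, none past the test. The share of such genes among all genes tested was not counted, so this count does not tell whether they are more common here. Chaf1b encodes the middle subunit of chromatin assembly factor 1, which places histones on newly copied DNA (mRatBN7.2 chr11:33200981-33221070, plus strand). Its level was 12.3, 12.6, 13.6, 14.3 and 11.4 CPM with PBS and 13.6, 13.3, 13.8, 14.3 and 13.99 CPM with histidine, groups that overlapped. With doxorubicin it was 3.94, 4.15, 5.31, 5.91 and 4.40 CPM, and with combined treatment 2.90, 2.76, 2.77, 2.88 and 3.52 CPM, all 5 below the lowest doxorubicin library. The interaction was -0.78 ± 0.15 (SE), an adjusted p of 0.189 in edgeR's test, and combined against doxorubicin was -0.68 with an adjusted p of 0.0770, so neither passed. DESeq2 called the interaction at an adjusted p of 0.00194, and over the other alternatives the adjusted p was 0.0924 to 0.593. Over all genes, the combined libraries lay wholly below the doxorubicin libraries for 76 genes (0.492%) and wholly above for 87 (0.563%).

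Cdk1, the kinase that drives entry into mitosis, showed a similar order. It stood at 60.4, 59.3, 65.7, 64.8 and 59.4 CPM with PBS and 66.9, 65.5, 64.6, 73.1 and 64.7 CPM with histidine. It stood at 7.79, 7.996, 10.6, 11.4 and 7.41 CPM with doxorubicin and 7.08, 6.995, 7.41, 5.12 and 4.94 CPM with combined treatment. The combined libraries were all below the doxorubicin libraries, although the nearest 2 libraries were both at 7.41 CPM to 3 digits, and doxorubicin replicates 3 and 4 were the highest of their group. The interaction was -0.63 ± 0.18 with an adjusted p of 0.631. Cdca2, which recruits a phosphatase to chromosomes at the end of mitosis, also had non-overlapping groups, 3.01 to 4.23 CPM with doxorubicin and 2.16 to 2.76 CPM with combined treatment, and an interaction of -0.50 ± 0.14. Plk4, the kinase that starts centriole duplication, was at 3.83 to 6.29 CPM with doxorubicin and 3.22 to 3.84 CPM with combined treatment, where 1 library of each group lay in the range of the other, with an interaction of -0.56 ± 0.14.

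The 250 bases before the annotated start of Chaf1b, Cdk1 and Plk4, the 3 of these 4 genes with the smallest p, are given here to show the sequence before genes of this kind. They come from RefSeq on the assembly GRCr8, plus strand in each case, whereas the deposited coordinates are on mRatBN7.2. Capitals mark 3 kinds of motif searched on both strands: the cell cycle homology region TTTGAA, the CCAAT box CCAAT, and the E2F words TTTGGCGC, TTTCCCGC, TTTCGCGC and TTTGCCGC. These occurred in 16.2%, 34.0% and 1.73% of the 33469 promoter windows of this length.
Chaf1b, chr11:46670400-46670649: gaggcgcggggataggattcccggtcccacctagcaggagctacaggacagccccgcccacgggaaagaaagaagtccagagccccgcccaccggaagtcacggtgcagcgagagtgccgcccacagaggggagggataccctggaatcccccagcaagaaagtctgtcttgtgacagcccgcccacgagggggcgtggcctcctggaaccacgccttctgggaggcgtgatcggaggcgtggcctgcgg
Cdk1, chr20:19265043-19265292: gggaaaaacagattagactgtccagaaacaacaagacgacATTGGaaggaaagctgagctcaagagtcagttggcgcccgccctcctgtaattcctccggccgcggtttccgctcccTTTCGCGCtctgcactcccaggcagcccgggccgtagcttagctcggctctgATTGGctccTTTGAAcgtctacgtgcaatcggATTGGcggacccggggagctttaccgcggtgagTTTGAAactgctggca
Plk4, chr2:125730230-125730479: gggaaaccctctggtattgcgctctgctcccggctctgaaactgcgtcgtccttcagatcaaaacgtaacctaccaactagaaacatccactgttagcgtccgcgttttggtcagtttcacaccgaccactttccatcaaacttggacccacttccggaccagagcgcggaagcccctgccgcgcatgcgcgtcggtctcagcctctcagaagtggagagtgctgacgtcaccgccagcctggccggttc
Cdk1 held TTTGAA 2 times, CCAAT 3 times and the E2F word TTTCGCGC once. In the windows of Chaf1b and Plk4 none of these letters were found.

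Of the 36 measured cell cycle genes 32 had a negative interaction and 8 of them an unadjusted p under 0.05, with a median of -0.22. Among all genes tested 51.3% were negative, 3.42% of all were negative with such a p, and the median was -0.01. None of the 36 passed the adjusted test. Only Cdk1, 1 of the 36, had all combined libraries below the doxorubicin libraries, against 76 of all genes tested (0.492%). Birc5 (survivin) and Ttk, regulators of the mitotic spindle, were at -0.67 ± 0.23 and -0.64 ± 0.22. Top2a, the topoisomerase II of dividing cells, and Mki67, the proliferation marker, were at -0.24 ± 0.34 and -0.18 ± 0.27, and both turned slightly positive without doxorubicin replicate 3. The summed list was 339 to 518 CPM with doxorubicin and 318 to 415 CPM with combined treatment, ranges that overlapped, with doxorubicin replicate 3 the highest and replicate 4 the lowest of their group. Without doxorubicin replicate 3 the median was -0.09 with 23 negative members, and without replicate 4 it was -0.35 with 33. The interaction of these genes compares small remaining levels, since the median of the list was -3.04 for doxorubicin against PBS and -3.18 for combined against histidine. Cdk1 fell by 2.77 on the log2 scale with doxorubicin and by 3.41 with doxorubicin in the presence of histidine (adjusted p = 1.7e-12 and 1.4e-13 in edgeR's test).

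Several genes of macrophages and other leukocytes, of which little was left with the drug, were lower still with combined treatment, none past the test with all libraries. Lst1, a membrane protein of myeloid cells, stood at 16.5 to 22.97 CPM with PBS and 17.4 to 21.9 with histidine. The doxorubicin libraries together held 66 reads of it, spread over 4 of 5 libraries, or 0.199 CPM with a 95% exact Poisson interval of 0.154 to 0.253, and the combined libraries 3 reads, all in replicate 5, or 0.00927 CPM (0.00191 to 0.0271). The ratio of doxorubicin to combined was 21.4 with a counting interval of 7.03 to 107, which covers counting error only. Ly86, whose product pairs with a relative of the toll-like receptors, was named here after its values were seen. It had 49 reads with doxorubicin and 0 with combined treatment, at least 15.9-fold lower when the combined group is set to 3 reads as its floor. In both genes doxorubicin replicate 4, whose reads enter these folds, was the highest of its group. It was at 0.371 CPM for Lst1 against 0 to 0.3155 in the others, and at 0.331 CPM for Ly86 against 0 to 0.168. The interaction of Lst1 was -4.19 with all libraries and -3.78 without that library. Doxorubicin replicate 2 had 0 reads of both genes as well, so the groups overlapped. DESeq2 called Lst1, Ly86 and Plek, and edgeR called Lst1 and Ly86 when that library was left out.

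Plek (pleckstrin), a protein kinase C substrate of blood cells, was at 0.299, 0.197, 0.280, 0.384 and 0.548 CPM with doxorubicin and 0.149, 0.232, 0.125, 0.0715 and 0.0617 CPM with combined treatment, groups that overlapped, with an interaction of -1.47 ± 0.34 and an adjusted p of 0.631. Pf4, a chemokine of platelets and macrophages, was at 2.62, 2.65, 3.53, 4.69 and 4.53 CPM with doxorubicin and 2.36, 1.49, 2.43, 0.944 and 1.70 CPM with combined treatment. Its combined libraries were all below the doxorubicin libraries, and the interaction was -1.34 ± 0.39. C1qb, a complement chain made by macrophages, and Cd68, their lysosomal marker, were at -2.40 ± 0.90 and -0.58 ± 0.22, and C1qb was at -1.56 without doxorubicin replicate 4. Csf1r, the receptor through which macrophages receive their growth factor, was at -0.21 ± 0.31. Its drug groups overlapped, at 1.15 to 2.04 CPM alone and 0.572 to 2.50 CPM combined. Its histidine libraries, at 128 to 136 CPM, all lay below the PBS libraries at 138 to 146 CPM. The interaction of Csf1r ran from -0.50 without combined replicate 2 to -0.0066 without combined replicate 4.

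Of the 14 measured macrophage and leukocyte markers 12 were negative with a median of -0.23, and 2 had an unadjusted p under 0.05. Among all genes tested 51.3% were negative, and 3.42% of all were negative with such a p. Without doxorubicin replicate 4 there were 7 negative members and a median of -0.05. The summed markers were 329.7 CPM in that library against 193 to 225 in the other 4 doxorubicin libraries and 189 to 221 in the combined ones.

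On the positive side, the gene with the smallest p among those with a mean of at least 5 CPM was the one for the alpha-2 catalytic subunit of the AMP-activated protein kinase (ENSRNOG00000007706, mRatBN7.2 chr5:119813226-119879543, minus strand), the energy sensor of muscle cells. It was named by its protein description after its values were seen. Its level was 6.30, 6.05, 6.26, 6.04 and 6.55 CPM with PBS and 5.80, 5.96, 5.55, 5.32 and 5.62 CPM with histidine, all 5 below PBS. It was 3.24, 3.15, 3.56, 3.68 and 2.70 CPM with doxorubicin and 4.64, 6.002, 4.21, 5.18 and 4.77 CPM with combined treatment, all 5 above. It fell by 0.93 on the log2 scale from PBS with doxorubicin (adjusted p = 2.97e-07 in edgeR's test), and with histidine present the difference was -0.19. The interaction was 0.75 ± 0.14 with an adjusted p of 0.189 in edgeR's test, so it did not pass. DESeq2 and voom with sample weights called it, at adjusted p-values of 0.00194 and 0.0305. Over the other alternatives the adjusted p was 0.0831 to 0.589, and leaving out any 1 library kept the value between 0.67 and 0.80.

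Egr1, a transcription factor induced within minutes of a stimulus, had its histidine libraries below all PBS libraries, while its drug groups overlapped. It stood at 241, 271, 226, 232 and 272 CPM with PBS and 184, 200.4, 167, 174 and 198 CPM with histidine. With doxorubicin it stood at 329.5, 333, 234, 214 and 318 CPM and with combined treatment at 288, 334, 275, 323 and 331 CPM. Doxorubicin replicates 3 and 4 were below the other 3 of their group. The interaction was 0.54 ± 0.16 with an adjusted p of 0.631. Over all genes, the histidine libraries lay wholly below PBS for 69 (0.447%) and wholly above for 61 (0.395%).

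Other genes of the immediate-early list were also lower with histidine than with PBS. The doxorubicin mean was above the PBS mean for Egr1 (286 against 248 CPM). It was below the PBS mean for Jun (45.2 against 87.2 CPM) and Nr4a1 (25.1 against 30.5 CPM). Jun, a subunit of the AP-1 factor, was at 80.97 to 91.5 CPM with PBS and 71.05 to 80.4 CPM with histidine, without overlap, and at 42.3 to 49.6 and 45.4 to 52.5 CPM with the drug alone and combined, with an interaction of 0.26 ± 0.09. Nr4a1, an inducible nuclear receptor, was at 0.43 ± 0.18, and its histidine libraries also lay below all PBS libraries. Of the 24 measured members 13 were positive, 5 of them with an unadjusted p under 0.05 (3.44% of all genes tested), and the median was 0.07. It was 0.00 without histidine replicate 3, and 4 of the 24 had all histidine libraries below PBS. All 24 had a lower estimate with histidine than with PBS, with a median of -0.11. Of all 15449 genes tested 7878 had a lower one, with a median of -0.0025. With combined treatment 15 of the 24 were lower and 9 higher than with doxorubicin, with a median of -0.08. Btg2, an antiproliferative p53 target, was also lower with histidine, at 30.2 to 33.6 CPM against 35.9 to 38.7 CPM with PBS. Its drug groups were higher and overlapped, at 57.4 to 75.6 CPM alone and 65.3 to 75.1 CPM combined (0.23 ± 0.10).

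**Figure D2:**
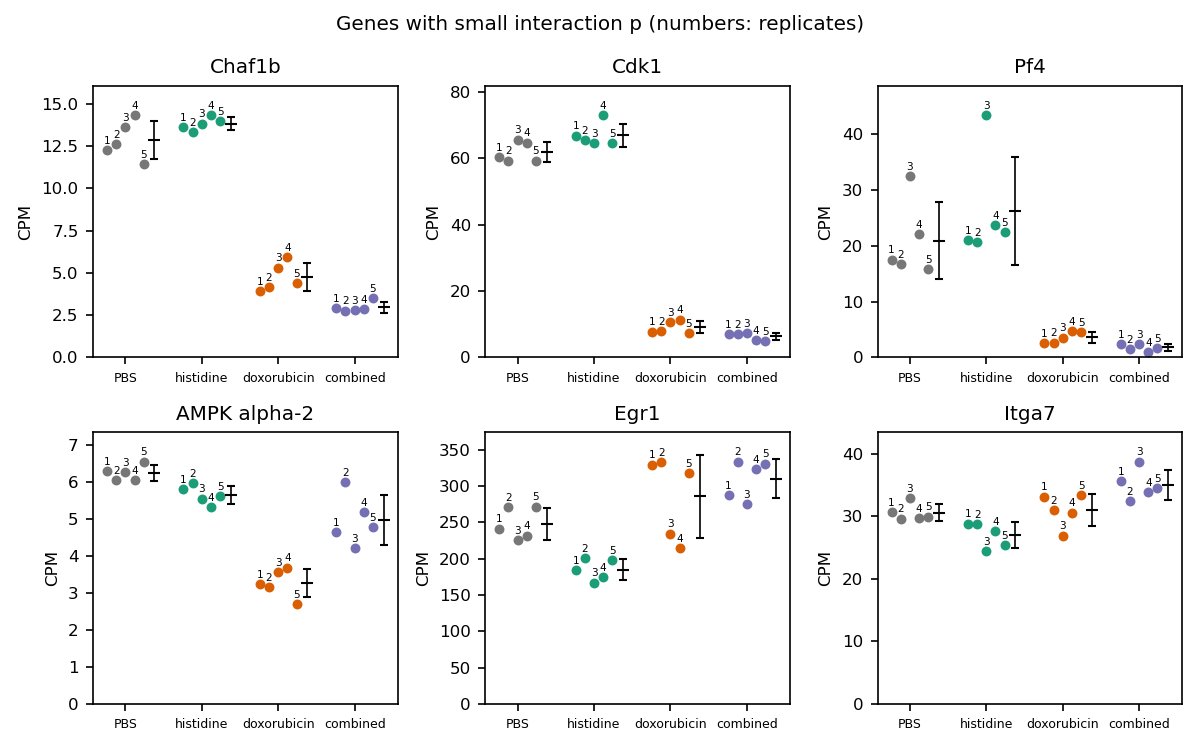
Levels in CPM (y) of 6 genes in the 20 libraries, by group (x); each point is a library with its replicate number, and the bar beside a group is its mean ± SD (n = 5). For Chaf1b, Cdk1 and Pf4 the combined libraries lie below all doxorubicin libraries; for the AMPK alpha-2 gene they lie above, while its histidine libraries, like those of Egr1 and Itga7, lie below all PBS libraries.

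Other positive interactions with small p included genes for receptors, channels and regulators of muscle and stroma, and each gene named from Itga7 to Mbtd1 below had an adjusted p of 0.631 in edgeR's test. Itga7, the laminin receptor of muscle, was at 29.6 to 32.8 CPM with PBS and 24.4 to 28.8 CPM with histidine. In the drug groups it was at 26.9 to 33.4 CPM alone and 32.5 to 38.7 CPM combined, and its interaction was 0.35 ± 0.10. Its histidine libraries were all below PBS and its drug groups overlapped. Prdm16, a transcription factor of heart and brown fat, also had histidine libraries below all PBS libraries, at 18.02 to 22.8 against 23.3 to 29.3 CPM. Its drug groups were lower and overlapped, at 7.91 to 12.6 CPM alone and 11.2 to 13.9 CPM combined, with an interaction of 0.52 ± 0.16. Col12a1, a collagen that sits on the surface of fibrils, was at 792 to 905 CPM with PBS and 662 to 736 with histidine without overlap, and its interaction was 0.53 ± 0.17, with doxorubicin replicates 3 and 4 at 451 and 411 CPM against 660 to 714 in the other 3. For Perp, a membrane protein of desmosomes and a p53 target, the interaction was 0.95 ± 0.27 at levels of at most 2.35 CPM.

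In a further set of positive genes the order was in the drug groups. Pdzd2, a scaffold protein with several PDZ domains, was at 7.64, 7.30, 5.56, 5.88 and 6.76 CPM with doxorubicin and 8.86, 9.47, 7.94, 9.29 and 9.17 CPM with combined treatment. All combined libraries were above all doxorubicin libraries, doxorubicin replicates 3 and 4 were the lowest, and the interaction was 0.55 ± 0.15. The same separation was found for Pde3a, the phosphodiesterase that breaks down cyclic AMP in heart and vessel (0.58 ± 0.18), for Cacna1c, the pore of the L-type calcium channel (0.55 ± 0.19), and for Ttn, the giant spring protein titin (0.59 ± 0.19). In Pde3a the doxorubicin libraries 3 and 4 stood at 16.4 and 16.2 CPM against 22.4 to 25.5 in the other 3, and in Cacna1c at 23.9 and 20.6 against 33.2 to 38.2. The combined groups were at 25.5 to 30.9 and 38.8 to 40.9 CPM. In Ttn the drug groups nearly met, at 14.6 to 21.4 CPM with doxorubicin and 21.5 to 23.4 with combined treatment. Histidine replicate 4 was at 39.5 CPM of Ttn against 69.1 to 74.1 in the other histidine libraries. Without that library the interaction of Ttn was 0.46. Itpr1, a calcium release channel, Pde5a, the cyclic GMP phosphodiesterase, Boc, a receptor of the hedgehog pathway, Rassf5, a Ras effector, and Mbtd1, a chromatin reader, were at 0.50 ± 0.17, 0.47 ± 0.14, 0.47 ± 0.14, 0.42 ± 0.13 and 0.39 ± 0.11, with drug groups that overlapped.

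Markers of smooth muscle and pericytes, cells of the vessel wall, were mostly positive. Of the 12 measured 11 were positive and 4 had an unadjusted p under 0.05, with a median of 0.34. Among all genes tested 7523 of 15449 were positive, and 3.44% of all were positive with such a p. Myocd, the coactivator that turns on smooth muscle genes, was at 6.81, 6.99, 3.75, 5.41 and 6.46 CPM with doxorubicin and 9.18, 9.18, 6.80, 9.17 and 8.83 CPM with combined treatment, where only the lowest combined library reached into the doxorubicin range. Its interaction was 0.70 ± 0.29, and those of Myh11, the smooth muscle myosin, and Pdgfrb, the platelet-derived growth factor receptor of pericytes, were 0.45 ± 0.18 and 0.38 ± 0.15. The summed markers were 2898 CPM in doxorubicin replicate 3 against 4407 to 6114 in the other 4, and 4418 to 5511 CPM with combined treatment. The median was 0.27 without doxorubicin replicate 3, 0.30 without replicate 4 and 0.14 without these 2 and histidine replicate 3. Collagen and matrix genes leaned the same way with 34 of 44 positive and a median of 0.17, which was 0.05 without those 3 libraries. Col1a1, the main fibrillar collagen, had an interaction of 0.37 ± 0.18 and a 95% interval of -0.02 to 0.75.

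Genes of inflammation were mostly negative, and 3 libraries moved with them. Ccl2, the chemokine that draws monocytes, stood at 247, 235, 376, 288 and 260.5 CPM with PBS and 264, 269, 592, 271 and 258 CPM with histidine. It stood at 681, 693, 1247, 2304 and 675 CPM with doxorubicin and 625, 609, 684, 652 and 580.4 CPM with combined treatment. Histidine replicate 3 and doxorubicin replicates 3 and 4 were far above the rest of their groups, and the remaining 3 doxorubicin libraries at 675 to 693 CPM overlapped the combined group. The interaction was -1.06 ± 0.43, and Ccl7, a chemokine encoded beside it, was at -1.08 ± 0.44 with the same libraries high. Ccl2 was at -0.62 without doxorubicin replicate 4 and Ccl7 at -0.66 without histidine replicate 3. Ccl20, which draws lymphocytes, was at -1.74 ± 0.65 and at -0.87 without doxorubicin replicate 4, where it stood at 22.6 CPM against 2.84 to 7.80. Il6, the cytokine of the acute phase, was at -0.81 ± 0.39, at -0.30 without histidine replicate 3 and at 0.05 without the 3 libraries. Mmp3, a protease that degrades matrix, was at -2.04 ± 0.83, and replicate 3 was its highest library in all 4 groups, at 4.96, 12.8, 29.5 and 8.25 CPM, and its interaction was -0.99 without histidine replicate 3.

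Of the 28 inflammatory and NF-kB genes 24 were negative and 6 had an unadjusted p under 0.05, with a median of -0.42. Among all genes tested 3.42% were negative with such a p. The median of the inflammatory list was -0.25 without doxorubicin replicate 3 and -0.21 without histidine replicate 3. It was -0.42 without doxorubicin replicate 4 and -0.50 without PBS replicate 3. Without histidine 3, doxorubicin 3 and doxorubicin 4 it was -0.03, and without the 4 libraries numbered 3 it was -0.18. Of the 32 secreted factors of senescent cells 25 were negative, with a median of -0.47. It was -0.28 without histidine replicate 3, -0.56 without PBS replicate 3 and -0.32 without the 4 libraries numbered 3. Without histidine 3, doxorubicin 3 and doxorubicin 4, 18 were negative, with a median of -0.03. Whether these libraries account for the negative values was not tested beyond leaving them out.

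**Figure D3:**
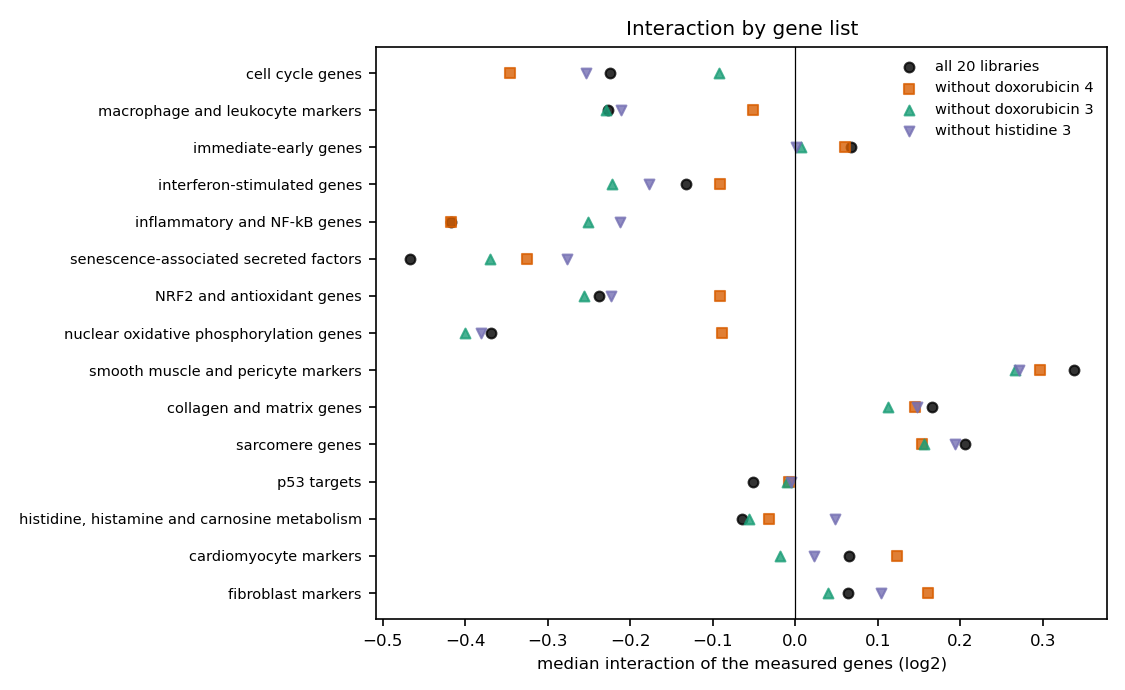
Median interaction (x, log2) of the measured members of 15 gene lists (y), from all 20 libraries and with single libraries left out. The medians of nuclear oxidative phosphorylation, NRF2, inflammatory and secreted factor genes lie nearer to 0 without 1 or more of the libraries doxorubicin 4, doxorubicin 3 and histidine 3; the smooth muscle median stays between 0.27 and 0.34 in these settings.

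Antioxidant and respiratory genes were also mostly negative, and moved with doxorubicin replicate 4. Of the 27 NRF2 and antioxidant genes 25 were negative and 6 had an unadjusted p under 0.05, with a median of -0.24, which was -0.09 without that library. The shares among all genes tested were 51.3% negative and 3.42% negative with such a p. Nqo1, a quinone reductase that acts on anthracyclines, was at 350.4, 405, 612, 442 and 387 CPM with doxorubicin and 338, 352, 411, 329 and 338 CPM with combined treatment, groups that overlapped, with replicate 3 the highest in both. Its interaction was -0.41 ± 0.20, and -0.26 without doxorubicin replicate 3. Srxn1, which repairs oxidised peroxiredoxins, was at 3.25, 3.61, 8.48, 8.49 and 8.44 CPM with doxorubicin, where 2 libraries were near the combined level of 2.37 to 3.86 and 3 were at 8.44 to 8.49, and its interaction was -1.49 ± 0.54. Gsr, which recycles glutathione, and Hmox1, which breaks down heme, were at -0.31 ± 0.13 and -0.26 ± 0.18. Gsr was at -0.20 without doxorubicin replicate 4, and Hmox1 at -0.10 without histidine replicate 3.

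The 42 nuclear genes of oxidative phosphorylation had 41 negative members and a median of -0.37, the most one-sided of the 33 lists. Cox7b, a small subunit of cytochrome c oxidase, stood at 45.1, 50.4, 55.2, 271 and 46.6 CPM with doxorubicin and 46.9, 49.2, 41.3, 43.7 and 47.7 CPM with combined treatment. Doxorubicin replicate 4 was alone, and the other 4 overlapped the combined group. The interaction of -1.16 ± 0.52 was -0.23 without that library. Cox7a1, the heart and muscle form of another subunit, was at -0.93 ± 0.42 with the same library highest. The list's median was -0.09 without doxorubicin replicate 4, with 35 negative members, and its sum was 6090 CPM in that library against 3367 to 3498 in the other 4 and 3103 to 3475 in the combined group.

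The interaction also moved with transcript length. When the 13619 genes were put into 5 bins by the length that their counts and FPKM values give, the median interaction was -0.26 in the shortest (median length 1233 bases), then -0.10, -0.01 and 0.05, and 0.14 in the longest (6305 bases). Without doxorubicin replicate 4 these medians were -0.07, -0.03, -0.00, 0.02 and 0.07. The Spearman's rho between length and interaction across genes was 0.502 with all libraries and 0.250 without that one, given as a description with no p. Most genes of oxidative phosphorylation encode small proteins, and titin, Itpr1, Cacna1c and Col12a1 large ones. The part of length in their interactions was not tested.

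**Figure D4:**
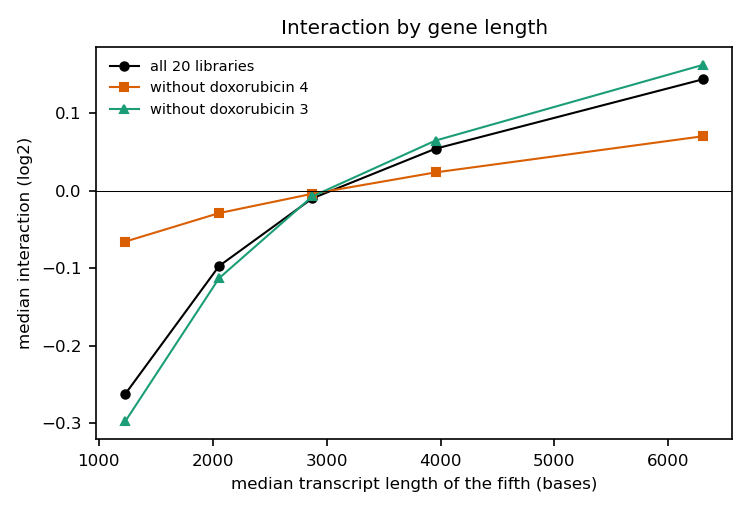
Median interaction (y, log2) of 5 equal bins of genes by transcript length (x, median of the bin in bases), with all 20 libraries and with doxorubicin replicate 4 or 3 left out. The line from all libraries climbs from -0.26 to 0.14; the line without doxorubicin 4 climbs from -0.07 to 0.07.

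Interferon-stimulated genes leaned negative as well, 29 of 36 with a median of -0.13, which was -0.22 without doxorubicin replicate 3 and -0.09 without replicate 4. Here 35 of the 36 were higher with histidine than with PBS, with a median of 0.15. Of all 15449 genes tested 7551 were higher with histidine than with PBS, with a median of -0.0025. With combined treatment 21 of the 36 were higher and 15 lower than with doxorubicin, with a median of 0.03. Irf9, a subunit of the interferon-activated factor ISGF3, Gbp4, a guanylate-binding protein, and Rtp4, an interferon-induced chaperone of receptors, were at -0.77 ± 0.31, -0.39 ± 0.15 and -0.78 ± 0.34, and Rtp4 at -0.37 without doxorubicin replicate 4. Ube2l6, the enzyme that passes on the ubiquitin-like modifier ISG15, was among the 10 negative genes with the smallest p and a mean of at least 5 CPM. Its histidine libraries, 16.1 to 21.3 CPM, were all above PBS, 13.1 to 15.6 CPM. With the drug it stood at 15.9, 15.9, 17.9, 30.6 and 18.2 CPM alone and 13.2, 13.2, 16.9, 13.5 and 11.5 CPM combined, groups that overlapped. The interaction was -0.89 ± 0.22, and -0.68 without doxorubicin replicate 4. Nop9, an RNA-binding protein of the nucleolus, and Tnfsf13, the B cell factor APRIL, were the remaining ones among the 10, at -0.35 ± 0.10 and -0.44 ± 0.12.

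No heart muscle gene passed the test. Of the 15 cardiomyocyte markers 8 were positive with a median of 0.06, and of the 33 sarcomere genes 21 with a median of 0.21. The cardiomyocyte median turned to -0.02 without doxorubicin replicate 3, with 9 of the 15 negative, and the sarcomere median was 0.10 without combined replicate 2 and 0.08 without doxorubicin replicates 3 and 4. Myh6, the fast cardiac myosin, had a 95% interval of -0.37 to 0.75, with a value of 0.01 without doxorubicin replicate 4 against 0.19 with all libraries, and Tnnt2, cardiac troponin T, of -0.16 to 0.29. Myh7, the slow cardiac myosin, was at 149 to 175 CPM with PBS and 121 to 143 with histidine without overlap, and at 4.69 to 10.7 and 6.24 to 9.79 CPM with the drug alone and combined, with an interaction of 0.46 ± 0.23. Nppb, the natriuretic peptide released under strain, was at -0.85 ± 0.36 with doxorubicin replicates 3 and 4 at 13.7 and 13.9 CPM against 5.28 to 6.13, and Nppa, its atrial relative, at -0.38 ± 0.35 with replicate 4 at 134 against 34.5 to 51.6 and a positive value of 0.12 without it. Among 24 genes near loci of atrial fibrillation 18 were positive with a median of 0.21.

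The genes that handle the drug and its damage showed no interaction past the test. Of 32 p53 targets 13 were positive and 19 negative, with a median of -0.05 (-0.0049 without histidine replicate 3). Gdf15, a stress cytokine and p53 target, had an interval of -0.46 to 0.38. Abcb1b, a pump that exports doxorubicin, was at 97.6 to 114 CPM with PBS and 658 to 1050 with doxorubicin, and its interaction of -0.08 ± 0.17 had an interval of -0.44 to 0.27 and turned to 0.055 without histidine replicate 3.

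The genes that handle histidine were likewise without a call. Of 11 measured genes of histidine, histamine and carnosine metabolism 5 were positive and 6 negative, with a median of -0.07. Without histidine replicate 3 the median turned to 0.05, with 6 positive. Slc7a5, the carrier LAT1 that brings large neutral amino acids into cells, was at 95.6 to 165 CPM with doxorubicin and 131 to 171 CPM with combined treatment, and its interval ran from -0.17 to 0.52. Cndp2, a cytosolic dipeptidase, had one of -0.24 to 0.10. Slc38a3, a carrier of histidine and glutamine, was at most 1.03 CPM in all libraries without the drug and at 4.88 to 6.12 CPM with doxorubicin and 4.94 to 6.93 with combined treatment, with an interaction of 0.36 ± 0.47. Cndp1, a carnosine dipeptidase, was at 11.5 to 14.7 CPM with histidine and 0.0780 to 0.648 with combined treatment (-0.17 ± 0.51). Hdc, the enzyme that makes histamine, and Hrh1, its first receptor, were under 1 CPM in every library, with intervals of -1.75 to 3.24 and -3.28 to 2.38.

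Some genes stood at separate levels within a group. In 247 genes (1.60%) the highest and lowest library of at least 1 group differed by 8-fold or more with a highest library of at least 5 CPM, and 21 of them had an unadjusted interaction p under 0.05. Among all 15449 genes tested 1060 (6.86%) had one. Ldah, a hydrolase of lipid droplets, had the largest positive value among the rule's genes, 3.42 ± 0.80 with an adjusted p of 0.631. It stood at 24.3, 19.8, 1.57, 19.4 and 18.3 CPM with PBS and 2.06, 2.03, 2.09, 1.78 and 1.41 CPM with histidine. It stood at 24.03, 24.2, 25.1, 22.1 and 1.40 CPM with doxorubicin and 19.1, 28.2, 21.5, 26.9 and 21.3 CPM with combined treatment. All 5 histidine libraries were at the low level, but PBS replicate 3 and doxorubicin replicate 5 were too, and no library lay between.

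Mlst8, a subunit of both mTOR complexes, stood at 14.6, 22.6, 21.7, 15.5 and 13.3 CPM with histidine and 15.3, 15.3, 17.0, 15.2 and 26.3 CPM with doxorubicin, against 22 to 25.1 CPM with PBS and 21.1 to 27.7 with combined treatment. 3 histidine libraries and 4 doxorubicin libraries made up the lower level, and the interaction was 0.92 ± 0.22. Gja1, the main gap junction protein and named here after its values were seen, was at 9.13 CPM in PBS replicate 2, at 7.5 and 9.52 CPM in histidine replicates 1 and 5, and at 309 to 513 CPM in the other 17 libraries, with an interaction of 0.25 ± 1.15. Cox6b1, a cytochrome c oxidase subunit also named after its values were seen, was at 0.0398 CPM in PBS replicate 3 and 0.0375 in histidine replicate 5, at 154 in doxorubicin replicate 4 and at 39.4 to 67.1 in the rest. The cause of these steps was not tested.

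**Figure D5:**
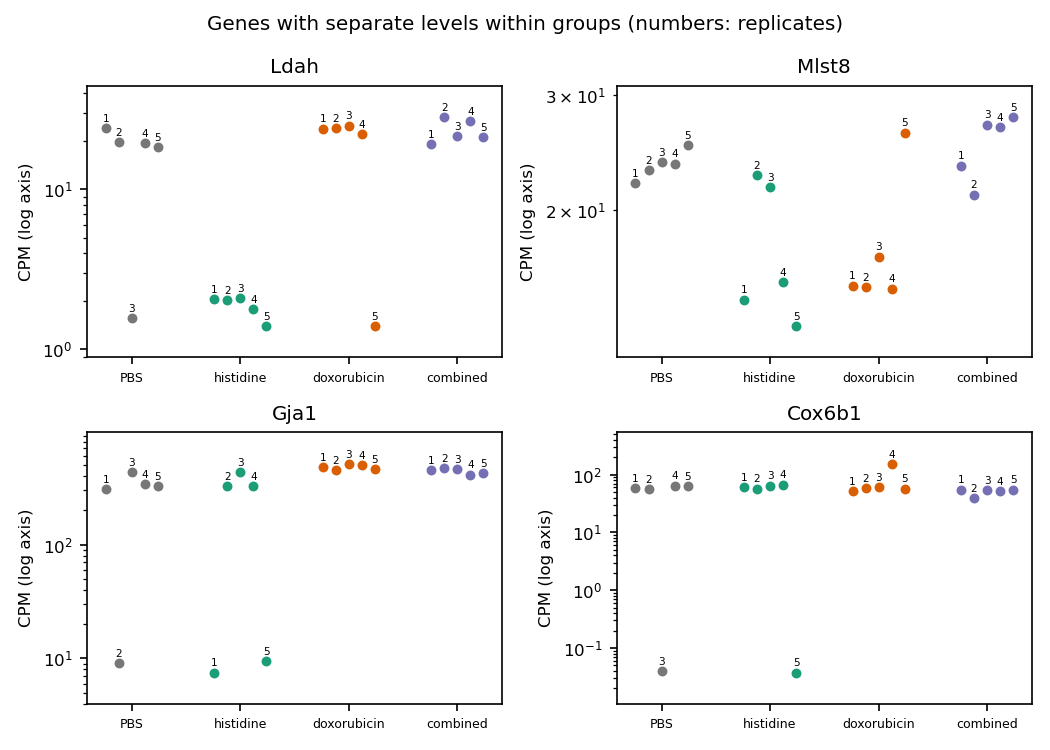
Levels in CPM (y, log axis) of Ldah, Mlst8, Gja1 and Cox6b1 in the 20 libraries by group (x); each point is a library with its replicate number. All 5 histidine libraries are low for Ldah, together with PBS 3 and doxorubicin 5; Gja1 is low in PBS 2 and histidine 1 and 5.

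The smallest p of all interactions belonged to Tspan8, a tetraspanin of epithelial cells, named after its values were seen since its mean was under 5 CPM. The PBS libraries held 2 reads of it together, both in 1 library, the histidine libraries 48 reads or 0.156 CPM (95% exact Poisson interval 0.115 to 0.207), the doxorubicin libraries 196 reads or 0.591 CPM (0.511 to 0.679) and the combined libraries 122 reads or 0.377 CPM (0.313 to 0.450). Combined and doxorubicin differed 1.57-fold (1.24 to 1.98, counting error only), and doxorubicin replicate 4 alone was at 1.27 CPM against 0.346 to 0.432. The interaction had an adjusted p of 0.167 in edgeR's test. No fold of it is given, since the 2 reads with PBS are under the floor of 3 reads over a group.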

How the data were processed

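RNA-seq tables of 20 libraries were used, 5 in each of the 4 groups, grouped by the labels. Per the file headers the deposited table gives whole-number read counts per gene and FPKM values, and per the submitters' processing notes Trimmomatic and the genome build mRatBN7.2 were used. Which aligner was used and which filter left 15503 genes is not given in the sources used here. Of these genes 10413 had a symbol through RefSeq tables or protein names.

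The counts were fitted as deposited in edgeR 4.0.16 (R 4.3.3), with filterByExpr, which removed 54 genes, TMM scaling, 1 quasi-likelihood fit of 4 group means and Benjamini-Hochberg adjustment over 15449 genes. CPM values use the TMM-scaled totals. The SE of an interaction is its size divided by the root of its F value. Intervals cover 95%, and those of read counts counting error only. The computation was tested on simulated data. The alternatives were DESeq2 1.42.0, limma 3.58.1 (voom with sample weights, or log2 of FPKM plus 1 or 0.1), other scalings and filters, a replicate block and left-out libraries.

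The text names the 10 genes with the smallest p in each direction among those with a symbol and a mean of at least 5 CPM, since none passed the threshold, up to 3 genes of each of 33 lists, a set of fixed genes, and others where stated, while 1 result is not reported here. The genes, lists and comparison were chosen with earlier results of these data known. A list is described by its counts and median beside those of all genes tested, 7926 of 15449 negative with a median of -0.01.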

Additional observations from a re-analysis of the deposited data

Results flagged for a closer look

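For the genes and lists that the text names, 364 groups of 5 libraries were searched for a library whose gap to its nearest neighbour exceeded 0.71 of the range of the group, Dixon's limit for 5 values. There were 52 such libraries (14.3%). The limit flags about 1 in 20 groups of independent, normally distributed values. These groups are not of that kind: some genes were named for steps within groups, some had few reads, and list sums repeat member genes. The share of flags is therefore a description and not a test. Histidine replicate 3 and doxorubicin replicate 4 each accounted for 13. Values are CPM, with the range of the other 4 libraries of the group.

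Histidine replicate 3 was high for the macrophage chemokine Pf4 at 43.4 (20.7 to 23.6), for Ccl2 at 592 (258 to 271), Ccl7 at 455 (161 to 185), Il6 at 27.2 (7.80 to 9.90) and Mmp3 at 12.8 (1.46 to 2.59). It was also high for Nqo1 at 49.5 (30.6 to 34.5), Hmox1 at 217 (133 to 152), Nppb at 40.8 (24.3 to 27.5) and the drug exporter Abcb1b at 158 (93.8 to 112). Its sums were 3810 for leukocyte markers (3209 to 3299), 5745 for inflammatory genes (3249 to 3409), 8184 for secreted factors of senescence (6243 to 6461) and 4392 for NRF2 genes (3224 to 3359).

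Doxorubicin replicate 4 was high for Ube2l6 at 30.6 (15.9 to 18.2), Ccl20 at 22.6 (2.84 to 7.80), Cox7b at 271 (45.1 to 55.2), Cox6b1 at 154 (52.1 to 61.4), Cdkn1a at 1421 (952 to 1048), Nppa at 134 (34.5 to 51.6), Tspan8 at 1.27 (0.346 to 0.432) and Rtp4 at 18.3 (5.67 to 7.97). It was low for Prdm16 at 7.91 (11.3 to 12.6). Its sums were 329.7 for leukocyte markers (193 to 225), 10348 for secreted factors (6425 to 7490), 6090 for nuclear oxidative phosphorylation genes (3367 to 3498) and 7330 for p53 targets (4798 to 4934).

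In the combined group replicate 5 was at 3.52 for Chaf1b (2.76 to 2.90), 0.0463 for Lst1 (0 in the others), 133 for Mdm2 (464 to 525), 59.2 for Tnnt2 (48.9 to 51.6) and 6.93 for Slc38a3 (4.94 to 5.40). Combined replicate 3 was at 6.80 for Myocd (8.83 to 9.18) and 411 for Nqo1 (329 to 352). Combined replicate 2 was at 0.413 for Hrh1 (0 to 0.0780), 39.4 for Cox6b1 (51.4 to 55.0) and 576 for the sum of histidine, histamine and carnosine genes (525 to 532).

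Histidine replicate 4 was at 73.1 for Cdk1 (64.6 to 66.9), 39.5 for Ttn (69.1 to 74.1) and 662 for Col12a1 (723 to 736). Histidine replicate 5 was at 128 for Csf1r (134 to 136), 129 for Cndp2 (139 to 143) and 0.0375 for Cox6b1 (57.3 to 67.1), and histidine replicate 1 at 30.6 for Mdm2 (111 to 124). PBS replicate 3 was at 1.57 for Ldah (18.3 to 24.3), 4.96 for Mmp3 (1.05 to 2.15) and 0.0398 for Cox6b1 (55.2 to 64.7). PBS replicate 4 was at 13.6 for Rassf5 (11.3 to 11.9), 3.96 for Srxn1 (0.879 to 1.23) and 0.0265 for Tspan8 (0 in the others). Doxorubicin replicate 5 was at 1.40 for Ldah (22.1 to 25.1) and 26.3 for Mlst8 (15.2 to 17.0), and doxorubicin replicate 3 at 29.5 for Mmp3 (6.73 to 9.21).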

How the results depend on the processing

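The count of interactions called was 0 in the reported fit, 15 with DESeq2 and 2 with voom and sample weights, and 0 to 2 with 1 library left out. The 15 included Chaf1b, Lst1, Ly86, Plek, Ldah, Tspan8, the AMPK alpha-2 gene and Il10. The other scalings, filters and tests gave 0, as did leaving out doxorubicin replicates 3 and 4. A replicate block gave 0 calls with a smallest adjusted p of 0.254. Correlations were taken between libraries of different groups, on log2 CPM with the mean of each gene in the library's group subtracted. Genes with a mean of at least 1 CPM were used. Same-numbered libraries correlated over 0.1 in 4 of 30 pairs. Their median was 0.019 and their highest 0.256, against -0.0026 and 0.129 in 120 pairs of different numbers. Of the 20 libraries 8 correlated best with a library of their own number, and how many would do so by chance was not computed. The labels do not say whether the numbers mark shared cultures, so they were not taken as pairs. Leaving out the 4 libraries numbered 3, or histidine 3, doxorubicin 3 and doxorubicin 4, was added after the values were seen. Of 76 named genes 62 kept their direction in every setting, and the cause of the reversals below was not tested. With voom Nppa was 0.031, Mdm2 0.11, Cndp1 0.30, Myh6 -0.010 and Hdc -0.64. With log2(FPKM + 1) Csf1r was 0.076 and Cndp1 0.045. Without doxorubicin 3 and 4 Nppa was 0.027, Gdf15 0.010, Mdm2 0.0049 and Myh6 -0.013, and also without histidine 3 Il6 was 0.048, Nppa 0.098, Mdm2 0.10, Slc7a5 -0.026 and Myh6 -0.0082. Without the libraries numbered 3 Abcb1b was 0.097, Hrh1 0.081 and Cndp1 0.041. With 1 library left out, Nppa ran from -0.53 to 0.12, Top2a from -0.45 to 0.011, Mki67 from -0.33 to 0.030, Abcb1b from -0.18 to 0.055, Hrh1 from -2.69 to 0.066, Cndp1 from -0.49 to 0.081, Gja1 from -0.064 to 0.65, Gdf15 from -0.16 to 0.048 and Mdm2 from -0.30 to 0.15. Among genes under 1 CPM 4.21% had an interval within 2-fold either way; depth itself was not varied.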

Other observations

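Other gene groups of heart and stress biology gave interactions on both sides of 0, and 0 of their members passed edgeR's test. Each median is followed by its lowest and highest value when 1 library was left out. Genes of fatty acid oxidation, the main fuel pathway of the heart, had 21 of 31 members negative with a median of -0.14 (-0.17 to -0.10). Autophagy and lysosome genes had 14 of 19 negative with a median of -0.16 (-0.18 to -0.07), the highest without doxorubicin replicate 4. Endothelial markers had 7 of 10 negative with a median of -0.22 (-0.31 to -0.06), the highest without combined replicate 4. Genes of the targets, transport and reduction of doxorubicin had 9 of 11 negative with a median of -0.08 (-0.19 without PBS replicate 1 to -0.03 without doxorubicin replicate 3).

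The remaining groups had medians near 0 or a direction that 1 library turned. Ion channel and gap junction genes had 11 of 15 positive with a median of 0.11, which was -0.02 without histidine replicate 5. Mitochondrially encoded genes had 6 of 13 positive with a median of -0.03, while without doxorubicin replicate 4 there were 10 positive with a median of 0.05, and without doxorubicin replicates 3 and 4 there were 13 with a median of 0.09. Targets of the amino acid starvation factor ATF4 had 14 of 26 positive with a median of 0.01 (-0.06 without doxorubicin replicate 3 to 0.08 without replicate 4). Genes of DNA damage and repair had 17 of 27 positive with a median of 0.04, which was 0.01 without doxorubicin replicate 4, and amino acid transporters 12 of 21 with 0.10, which was 0.05 without combined replicate 5.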
